A study of Mus musculus with 8 samples.

Results

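The genes described here are 54 named genes of the cell division cycle and of DNA replication, followed across 4 kinds of mouse pluripotent or embryonic sample. They were taken from a fixed list of symbols and arranged by the step they serve: origin licensing (11 genes), the replication fork (10), nucleotide supply (3), G1 and G1/S cyclins and kinases (8), CDK inhibitors (3), pocket proteins (3), E2F factors (3), G2/M cyclins with Cdk1 (4), and mitosis or proliferation (9). A gene was represented by the probe set that the platform annotation assigned to it alone, and by the brightest one where it had several. In all, 51 of the 54 genes had such a probe set, out of 22180 genes on the array that had one. Rfc4 shared its probe set with Eif4a2, Ccne2 shared its with Ints8, and Ccnb1 had no probe set of its own, so these genes were not analysed here. Of the 51, 50 were bright enough to be tested, among 13597 genes tested in all. The exception was E2f2, an S-phase transcription factor gene, whose 8 values ran from 3.31 to 3.73 and lay below the median of all deposited values, 4.24.

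Each group held 2 arrays of wild type C57BL/6J material, 8 arrays in all. FGF-ESC and EpiSC were lines kept in KODMEM with 20% KSR, a serum replacement, and FGF2 on mouse embryonic fibroblasts (MEF), which serve as feeder cells. ESC were lines kept in DMEM with 15% FCS, LIF and 2i, a pair of kinase inhibitors, without MEF. ICM was inner cell mass freed from E3.5 blastocysts by immunosurgery and not cultured, and its RNA was extracted with another kit of the same maker than that of the cultured cells. The labels trace all the lines, EpiSC included, to E3.5 embryos. FGF-ESC and EpiSC share medium and feeders as described. Between ESC and either of them, medium, feeders and kind of cell change together. Between ICM and the rest, extraction kit and culture change together. In those comparisons their parts cannot be told apart. The labels do not say whether a group's 2 samples were grown or collected separately, so p-values measure the spread between these samples only, which may be technical.

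The cell cycle is driven by cyclins, which switch on cyclin-dependent kinases (CDKs) in turn. In G1, D-type cyclins with CDK4 or CDK6 begin to phosphorylate the retinoblastoma family of pocket proteins, cyclin E with CDK2 completes this, and the E2F factors so freed switch on the genes of S phase. Origins of replication are licensed in G1 by the origin recognition complex, CDC6, CDT1 and the MCM helicase, and mitosis is then started by CDK1 with B-type cyclins. Mouse embryonic stem cells are known for a short G1 phase.

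Values are log2 intensities. The 2 arrays of a group correlated across the tested genes with r between 0.967, in FGF-ESC, and 0.994, in ESC. A gene was counted as differing when limma's adjusted p was below 0.05 and its log2 difference was 1 or more in size, which is a 2-fold change. Of 10 pluripotency markers, 9 exceeded the overall median of 4.24 on every FGF-ESC, ESC and ICM array and 10 did on both EpiSC arrays. Markers of fibroblasts, the feeder cell type, were measured for 21 of 22 genes, with a mean level of 8.62 and 7.48 for FGF-ESC, 5.05 and 5.38 for EpiSC, 4.36 on both ESC arrays, and 4.34 and 4.51 for ICM. Of the 20 fibroblast markers tested, FGF-ESC exceeded ESC in 18, EpiSC in 17 and ICM in 19. The mean of 8 trophectoderm markers was 5.76 and 5.71 in ICM, against 4.70 to 5.20 on the cultured arrays, and that of 9 primitive endoderm markers was 5.85 and 5.90, against 4.51 to 5.53. In such bulk samples, fewer cells of a type and less RNA per cell cannot be told apart.

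The genes that passed the threshold were mostly those of G1 control, and 32 of the 35 genes of replication and mitosis differed by less than 2-fold between any of the groups' means. The same held for 10163 of the 13597 genes tested. Of the 15 tested G1 genes (cyclins D and E, their kinases, inhibitors, pocket proteins and E2F factors), 9 passed the threshold in 1 or more of the 6 comparisons. Of the 35 tested genes of licensing, fork, nucleotide supply, G2/M and mitosis, 3 did: Mcm3, Gins2 and Aurkb. These 3 and the G1 genes Ccne1, Cdk4, Cdk6, Rb1 (brighter of its 2 probe sets), Rbl1 and E2f3 passed only against ICM. The span between the highest and lowest group mean had a median of 1.29 over the G1 genes and 0.57 over the other 35, beside 0.57 over all genes tested. Over the 50 genes together 12 passed somewhere, which is 24%, against 25.1% of all genes tested.

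**Figure D1:**
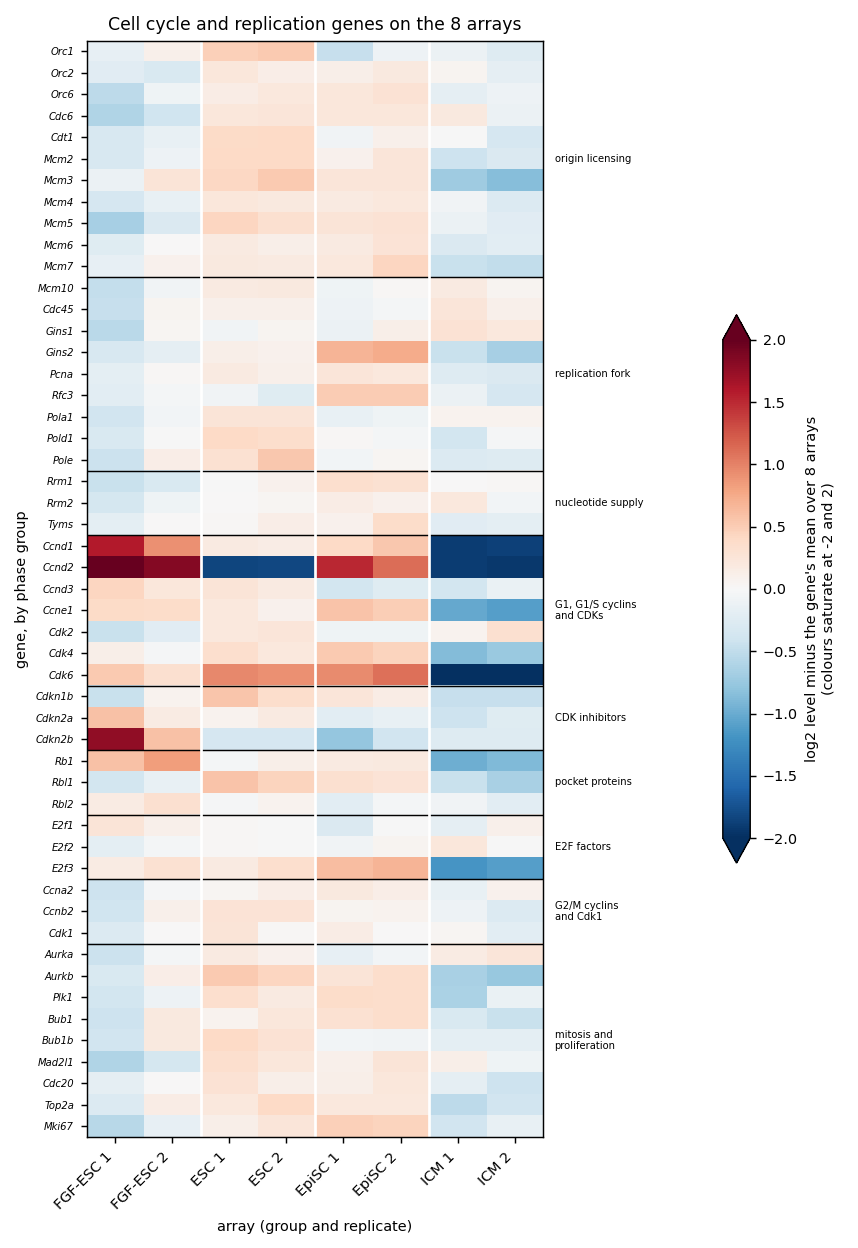
Level of each of the 51 measured genes (rows, by phase group) on each of the 8 arrays (columns), as the log2 value minus the gene's own mean over the arrays; colours saturate at -2 and 2. The strongest colours are in the G1 rows, where Ccnd2 is low in ESC and ICM and Cdk6 is low in ICM.

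FGF-ESC differed from ESC in 3 of the 50 genes, all higher in FGF-ESC: the cyclin genes Ccnd1 and Ccnd2 and the inhibitor gene Cdkn2b. In this comparison 6.21% of all genes tested passed, 5.27% as higher and 0.934% as lower in FGF-ESC. Against EpiSC 2 genes passed, Ccnd2 and Cdkn2b, both higher in FGF-ESC, where 7.28% of all genes passed, 5.26% as higher and 2.02% as lower. Between ESC and EpiSC 1 gene passed, Ccnd2, which was lower in ESC, where 7.36% of all genes passed, 3.5% as higher and 3.86% as lower in ESC. By limma 0 of the 50 were below ESC or EpiSC in FGF-ESC and 0 above EpiSC in ESC. At limma's unadjusted p below 0.05 with no fold minimum, these counts were 26, 23 and 6. In either direction 30, 30 and 12 of the 50 were under this p, beside 4222, 4460 and 4205 of the 13597 genes tested. With the other probe set of Rb1, FGF-ESC was below EpiSC in 1 gene, Rb1. ESC was then below EpiSC in Rb1 as well as in Ccnd2, with differences of -4.05 and -3.14. The counts for FGF-ESC with ESC and with EpiSC rose without FGF-ESC replicate 2 and fell without any of the other arrays compared. Without FGF-ESC replicate 2, not every gene that passed was higher in FGF-ESC, in either comparison. The single direction of these calls thus depends on that array.

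More genes differed between cultured cells and the uncultured ICM, as was also so over all genes tested, and every one of the 50 that passed was lower in ICM. FGF-ESC exceeded ICM in 7 genes (14.8% of all genes passed, 9.57% as higher and 5.22% as lower in FGF-ESC): Ccnd1, Ccnd2, Ccne1, Cdk6, Cdkn2b, Rb1 (by the brighter of its 2 probe sets, throughout) and E2f3. ESC exceeded ICM in 8 (11.4% of all genes, 5.82% higher and 5.57% lower): Mcm3, Ccnd1, Ccne1, Cdk4, Cdk6, Rbl1, E2f3 and Aurkb. EpiSC exceeded ICM in 10 (15.3% of all genes, 8.48% higher and 6.8% lower): Mcm3, Gins2, Ccnd1, Ccnd2, Ccne1, Cdk4, Cdk6, Rb1, E2f3 and Aurkb. By limma 0 were higher in ICM. At limma's unadjusted p below 0.05, 7 were higher in ICM than in FGF-ESC and 0 higher than in ESC or EpiSC. In either direction 23, 30 and 27 of the 50 were under this p for FGF-ESC, ESC and EpiSC. Over the 13597 genes tested these counts were 6222, 5805 and 6343. The 3 comparisons share the ICM arrays. Both ICM arrays lay below the other 6 arrays in 17 of the 50 genes, 34%, where the same held for 18.8% of all genes tested, and above them in 1 gene, Gins1 (19.2% of all genes). Both ESC arrays lay above all others in 14 genes, 28% (11.5% of all genes), 9 of them of licensing or the fork, and below all others in 0 (7.42%). For EpiSC this was so in 12 genes above (13.6%) and in 1 below, Cdkn2b (10.4%). Both FGF-ESC arrays were above all others in 5 genes (8.58%), Ccnd1, Ccnd2, Cdkn2b, Rb1 and Rbl2, and below in 7 (8.78%), Orc2, Cdc6, Mcm5, Rrm1, Rrm2, Cdk2 and Mad2l1.

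**Figure D2:**
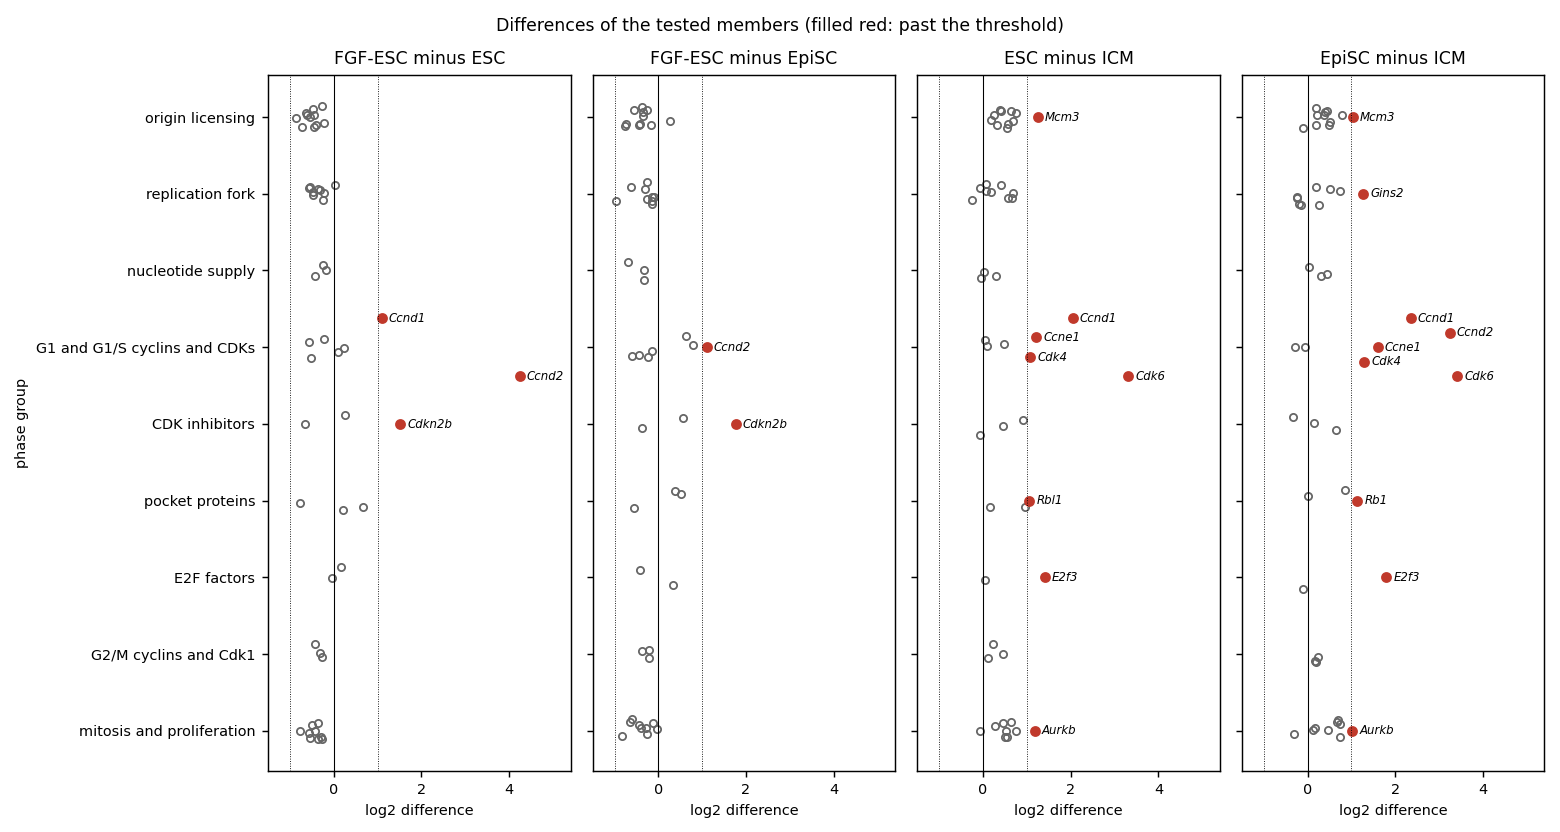
Differences in log2 level for the 50 tested genes (points), by phase group, in 4 of the comparisons; dotted lines mark a difference of 1 in either direction, and filled red points passed the threshold. Points that passed lie mainly in the G1 rows, and all lie to the right of 0 in these 4 comparisons. FGF-ESC minus ICM is not drawn, nor is ESC minus EpiSC, where Ccnd2 passed at -3.14. Rb1 is drawn by its brighter probe set.

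Among the D-type cyclins, which start the G1 kinases, Ccnd2 had the widest range of any of these genes by the brightest probe set of each. Rb1 spanned more by its other probe set, where EpiSC minus ICM was 5.41. The probe set of Ccnd2, 17471222, read 8.97 and 7.80 for FGF-ESC, 4.14 and 4.15 for ESC, 7.48 and 7.09 for EpiSC, and 4.06 and 4.03 for ICM. The arrays thus fell into a high pair of groups, FGF-ESC and EpiSC, and a low pair, ESC and ICM, with no overlap; the low values were under the median of all values, and no detection call was used here, so differences against ESC and ICM start from a weak signal. FGF-ESC exceeded ESC by 4.24 ± 0.32 (SE), an 18.9-fold difference (adjusted p = 0.000203), and ESC minus EpiSC was -3.14 ± 0.32 (adjusted p = 0.000349). Against ICM the differences were 4.34 for FGF-ESC and 3.24 for EpiSC (adjusted p = 3.31e-05 and 0.000117), while ESC and ICM differed by 0.10 ± 0.32 (adjusted p = 0.854). Between FGF-ESC and EpiSC the difference was 1.10 ± 0.32 (adjusted p = 0.0454), and it was 0.52 (adjusted p = 0.0818) without FGF-ESC replicate 1. That call was also lost without EpiSC replicate 1 or 2 (adjusted p = 0.110 and 0.227).

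Ccnd1, the cyclin D1 gene, was low in ICM and high in all cultured cells. It read 9.46 and 8.80 for FGF-ESC, 8.06 and 8.02 for ESC, 8.28 and 8.41 for EpiSC, and 5.98 and 6.00 for ICM. Each group's pair stood apart from every other pair, in the order FGF-ESC, EpiSC, ESC, ICM, although EpiSC and ESC did not differ by the test (adjusted p = 0.355). Cultured cells exceeded ICM by 3.14 in FGF-ESC, 2.05 in ESC and 2.35 in EpiSC, each ± 0.20, or 8.81-fold, 4.13-fold and 5.11-fold (adjusted p = 1.62e-05, 0.000168 and 4.86e-05). FGF-ESC exceeded ESC by 1.09 ± 0.20 (adjusted p = 0.0105). Without FGF-ESC replicate 1 this was 0.76, under the fold minimum, and without ESC replicate 1 or 2 the adjusted p was 0.0852 or 0.0864. The third D-type cyclin gene, Ccnd3, passed in no comparison: it read 7.34 and 7.14 for FGF-ESC, 7.18 and 7.10 for ESC, 6.55 and 6.68 for EpiSC, and 6.55 and 6.79 for ICM. Its FGF-ESC and ESC arrays lay above those of EpiSC and ICM, and the widest difference, 0.63 ± 0.14 between FGF-ESC and EpiSC (adjusted p = 0.0150), was under the fold minimum.

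The partners of the D-type cyclins, Cdk4 and Cdk6, were both lower in ICM. Cdk6, on probe set 17434297, read 6.98 and 6.78 for FGF-ESC, 7.42 and 7.37 for ESC, 7.41 and 7.56 for EpiSC, and 4.33 and 3.82 for ICM. The ICM pair stood far below the other 6 arrays, with 1 of its values under the median of all values. ESC exceeded ICM by 3.32 ± 0.18 and EpiSC by 3.41 ± 0.18, about 10-fold (9.97-fold and 10.6-fold; adjusted p = 7.83e-06 and 4.18e-06), and FGF-ESC by 2.81 ± 0.18 (adjusted p = 1.6e-05). Cdk4 read 9.12 and 8.99 for FGF-ESC, 9.35 and 9.22 for ESC, 9.54 and 9.46 for EpiSC, and 8.14 and 8.28 for ICM. Again ICM was below all others: ESC exceeded it by 1.08 ± 0.12 and EpiSC by 1.29 ± 0.12 (adjusted p = 0.000366 and 9.11e-05). The difference of 0.85 for FGF-ESC (adjusted p = 0.00104) was under the fold minimum. Cdk2, the kinase of cyclin E, passed in no comparison, with group means from 6.55 in FGF-ESC to 7.12 in ESC.

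Ccne1 encodes cyclin E1, which drives entry into S phase. It read 7.84 and 7.83 for FGF-ESC, 7.68 and 7.54 for ESC, 8.03 and 7.95 for EpiSC, and 6.44 and 6.35 for ICM. The cultured arrays lay close together and the ICM pair more than 1 below them. The differences from ICM were 1.44, 1.22 and 1.59 for FGF-ESC, ESC and EpiSC, each ± 0.12 (adjusted p = 4.97e-05, 0.000146 and 2.13e-05). E2f3, a transcription factor gene that promotes S phase, likewise had ICM lowest and EpiSC highest: 6.97 and 7.12 for FGF-ESC, 7.0 and 7.15 for ESC, 7.42 and 7.49 for EpiSC, and 5.63 and 5.71 for ICM. FGF-ESC and ESC overlapped, EpiSC lay above both, and ICM was lowest. ICM was exceeded by 1.37 in FGF-ESC, 1.40 in ESC and 1.79 in EpiSC, each ± 0.12 (adjusted p = 8.45e-05, 9.02e-05 and 1.54e-05). The related E2f1 passed in no comparison, with group means from 5.14 to 5.47.

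Among the inhibitors of these kinases, Cdkn2b, which encodes p15 and blocks CDK4 and CDK6, was higher in FGF-ESC than in every other group. It read 7.46 and 6.27 for FGF-ESC, 5.34 and 5.35 for ESC, 4.90 and 5.30 for EpiSC, and 5.43 and 5.43 for ICM. The FGF-ESC arrays lay above the other 6, and they were further from each other than any other pair. FGF-ESC exceeded ESC by 1.52 ± 0.33, EpiSC by 1.76 ± 0.33 and ICM by 1.44 ± 0.33 (adjusted p = 0.0198, 0.00767 and 0.00991). Without FGF-ESC replicate 1, the differences from ESC and ICM were 0.92 and 0.84, under the fold minimum. The call against ESC was also lost without ESC replicate 1 or 2 (adjusted p = 0.130 and 0.118), that against EpiSC without EpiSC replicate 1 (adjusted p = 0.0697), and that against ICM without ICM replicate 1 or 2 (adjusted p = 0.0514 and 0.0504). The neighbouring gene Cdkn2a encodes p16 and, in another reading frame, p19ARF, which the probe set cannot tell apart. It read 5.39 and 4.97 for FGF-ESC, 4.87 and 4.99 for ESC, 4.60 and 4.66 for EpiSC, and 4.39 and 4.56 for ICM, and passed in no comparison. Cdkn1b, which encodes p27, read 5.68 and 6.21 for FGF-ESC, 6.70 and 6.49 for ESC, 6.38 and 6.28 for EpiSC, and 5.67 and 5.68 for ICM. ESC was the highest pair, and its difference of 0.92 ± 0.18 from ICM (adjusted p = 0.00498) was under the fold minimum.

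**Figure D3:**
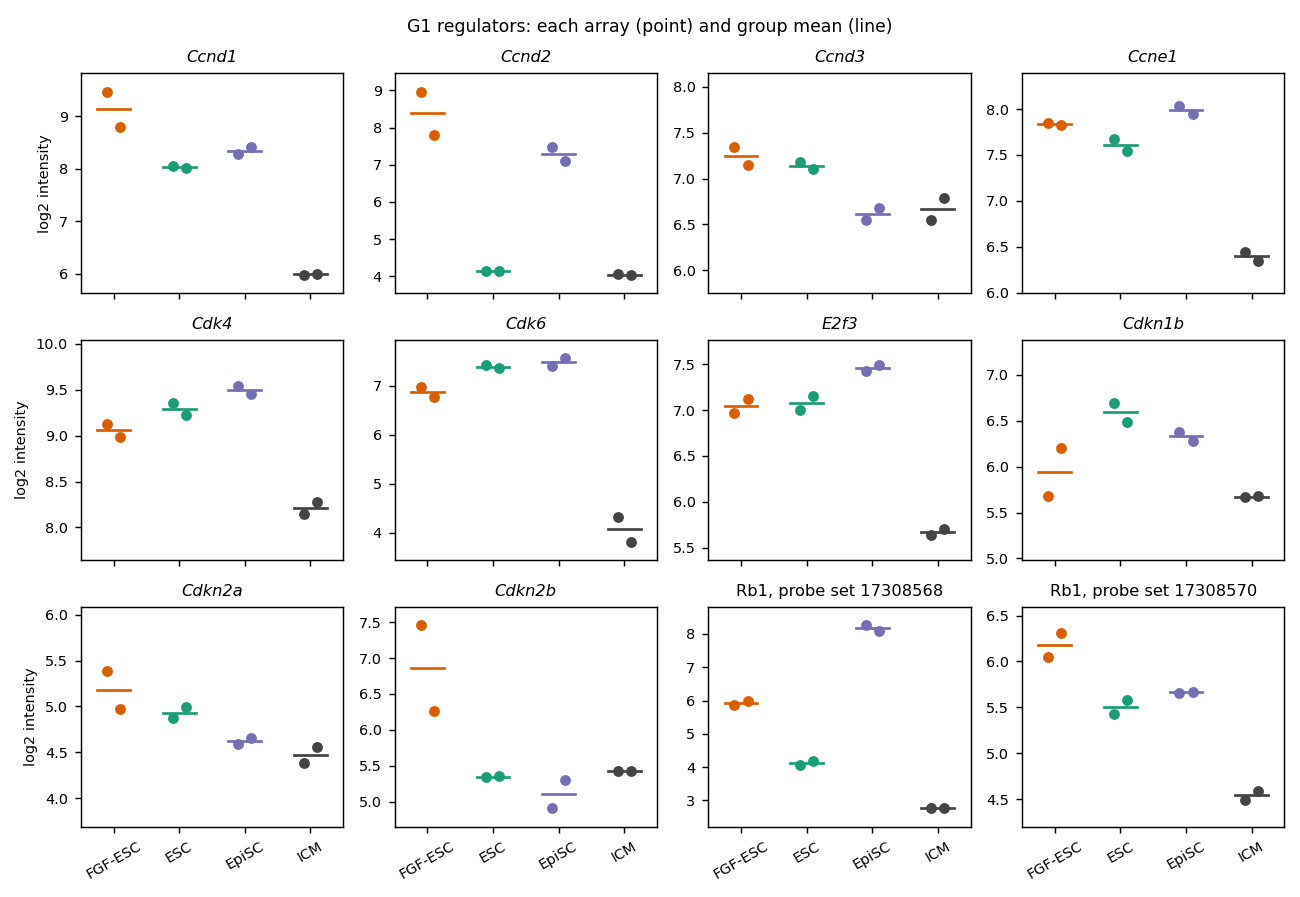
Log2 intensity of 11 G1 genes on each array (points) with group means (lines), 2 arrays per group; Rb1 is drawn once for each of its 2 probe sets, and the vertical scale differs between panels. ICM is the lowest group for Ccnd1, Ccne1, Cdk4, Cdk6 and E2f3, and the 2 probe sets of Rb1 order FGF-ESC and EpiSC in opposite ways.

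The pocket proteins bind E2F factors and hold them inactive. Rbl1, the p107 gene, read 5.34 and 5.55 for FGF-ESC, 6.27 and 6.14 for ESC, 6.03 and 5.97 for EpiSC, and 5.25 and 5.06 for ICM. ESC and EpiSC formed a high pair of groups, and ESC exceeded ICM by 1.05 ± 0.13 (adjusted p = 0.000614); this was 0.99 without ESC replicate 1 and 0.95 without ICM replicate 2, both under the fold minimum. Rb1, the retinoblastoma gene, had 2 probe sets. The brighter, 17308570, read 6.05 and 6.31 for FGF-ESC, 5.43 and 5.58 for ESC, 5.66 and 5.67 for EpiSC, and 4.49 and 4.59 for ICM, so that FGF-ESC was highest and ICM lowest. By it FGF-ESC exceeded ICM by 1.64 ± 0.13 and EpiSC exceeded ICM by 1.12 ± 0.13 (adjusted p = 5.02e-05 and 0.000277). The other, 17308568, read 5.88 and 6.00, 4.07 and 4.17, 8.27 and 8.08, and 2.76 and 2.77 in the same groups. Both put ICM lowest, but FGF-ESC minus EpiSC was 0.51 by the first and -2.24 by the second, so the order of FGF-ESC and EpiSC is not settled for Rb1. By the second, Rb1 was past the threshold as lower in FGF-ESC than in EpiSC (adjusted p = 3.59e-05), and FGF-ESC minus ESC was 1.81, against 0.67 by the first. Rbl2, the p130 gene, passed in no comparison, with group means from 4.63 to 5.01.

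Origin licensing genes were measured for all 11 listed. The one that passed was Mcm3, a subunit of the MCM helicase, which read 8.43 and 8.81 for FGF-ESC, 8.96 and 9.08 for ESC, 8.80 and 8.80 for EpiSC, and 7.84 and 7.70 for ICM. ICM lay below all other arrays. ESC exceeded it by 1.25 ± 0.15 and EpiSC by 1.03 ± 0.15 (adjusted p = 0.000451 and 0.000875); without ICM replicate 2 the latter was 0.96, under the fold minimum. The other 5 subunits, Mcm2 and Mcm4 to Mcm7, loaded on DNA in the same ring, had spans of group means from 0.45 to 0.85 and passed nowhere. Orc1, Orc2 and Orc6 of the origin recognition complex and the loading factors Cdc6 and Cdt1 spanned 0.45 to 0.79 and passed nowhere either.

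At the fork, Gins2, part of the complex that activates the helicase, passed between EpiSC and ICM. It read 8.10 and 8.24 for FGF-ESC, 8.54 and 8.51 for ESC, 9.10 and 9.16 for EpiSC, and 7.97 and 7.76 for ICM. Each group's arrays were apart from those of the others, with EpiSC highest, and EpiSC exceeded ICM by 1.26 ± 0.12 (adjusted p = 0.000109). Its partner in the complex, Gins1, read 7.96 and 7.89 in ICM, above all other arrays rather than below them, and passed nowhere. The remaining fork genes, Mcm10, Cdc45, Pcna (the sliding clamp), Rfc3 (a clamp loader subunit) and the polymerase genes Pola1, Pold1 and Pole, spanned 0.37 to 0.73. Of the nucleotide supply genes, Rrm1, a ribonucleotide reductase subunit, varied most: 8.23 and 8.38 for FGF-ESC, 8.68 and 8.77 for ESC, 9.02 and 8.98 for EpiSC, and 8.68 and 8.70 for ICM. FGF-ESC was lowest and EpiSC highest, with a difference of -0.70 ± 0.12 for FGF-ESC minus EpiSC (adjusted p = 0.00437) that was under the fold minimum. Rrm2 and Tyms spanned 0.34 and 0.44.

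The G2/M genes, Ccna2, Ccnb2 and Cdk1, had spans of 0.28 to 0.46. Ccnb2, a B-type cyclin gene and the widest of the 3, read 8.60 and 9.10 for FGF-ESC, 9.27 and 9.27 for ESC, 9.04 and 9.07 for EpiSC, and 8.89 and 8.73 for ICM. ESC was highest, and the FGF-ESC arrays overlapped those of EpiSC and ICM. None of the 3 passed in any comparison by limma; at an unadjusted p below 0.05, 1 of them was below it in each of the comparisons of FGF-ESC with ESC, FGF-ESC with EpiSC and ESC with ICM, and 0 in the other 3. In mitosis, Aurkb, a kinase of the chromosomal passenger complex, read 7.14 and 7.59 for FGF-ESC, 7.97 and 7.88 for ESC, 7.71 and 7.80 for EpiSC, and 6.79 and 6.70 for ICM. ICM was lowest, and ESC exceeded it by 1.18 ± 0.16 and EpiSC by 1.01 ± 0.16 (adjusted p = 0.000798 and 0.00135); the latter was 0.97 without EpiSC replicate 2 and 0.96 without ICM replicate 2. Its relative Aurka had its highest group mean, 8.26, in ICM and passed nowhere. Plk1, the spindle checkpoint genes Bub1, Bub1b and Mad2l1, the anaphase activator gene Cdc20, Top2a and Mki67 spanned 0.50 to 0.82.

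The promoters of these genes were searched for letters known from cell cycle genes. RefSeq windows of 300 bases (250 before and 50 after a start, GRCm38.p6) were at hand for 44 of the 54 genes, 50 windows in all, and not for Mcm4, Gins1, Gins2, Pole, Ccnd1, Ccnd2, Ccne2, Rb1, Ccna2 and Aurkb. They were searched on both strands for 4 E2F-type motifs: TTCCCGC was the first, TTCGCGC the second, TTGCCGC the third and TTGGCGC the fourth. The cell cycle homology region (CHR), which is bound by the DREAM complex at genes of G2/M, was searched as TTTGAA. The letters CCAAT, bound by NF-Y, read ATTGG on the other strand, and there they can overlap with TTGGCGC. E2F-type letters were in 8 of 12 licensing windows (66.7%) and 1 of 8 mitosis windows, against 9.57% of 32851 windows of all genes. CHR letters were in 1 of 12 licensing and 6 of 8 mitosis windows (75%), against 17.9% of all windows. The 3 windows of the G2/M genes Ccnb1, Ccnb2 and Cdk1 held both kinds, E2F-type letters in 2 (66.7%) and CHR letters in 2. CCAAT was in 10 of 12 and 7 of 8, against 37.4%. The 6 windows of G1 cyclins and kinases held 1 with E2F-type letters, 0 with CHR and 2 with CCAAT. A match is a description of letters, not of a bound site.

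Examples of windows with and without these letters follow, as the 120 bases before the start, each written 5′ to 3′ on the gene's strand with E2F-type, CHR and CCAAT letters of either strand in capitals. They were picked for their matches and are not typical: in this shorter stretch E2F-type letters were in 3 of 12 licensing and 1 of 8 mitosis stretches, and CHR letters in 1 of 12 and 3 of 8. Mcm6 (chr1:128359706-128359825, minus strand) and Orc1 (chr4:108579334-108579453, plus strand) stand for licensing, and Rbl1 (chr2:157204535-157204654, minus strand) for the pocket proteins.
Mcm6: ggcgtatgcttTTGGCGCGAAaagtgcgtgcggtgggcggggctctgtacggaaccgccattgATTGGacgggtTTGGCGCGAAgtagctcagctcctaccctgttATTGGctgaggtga
Orc1: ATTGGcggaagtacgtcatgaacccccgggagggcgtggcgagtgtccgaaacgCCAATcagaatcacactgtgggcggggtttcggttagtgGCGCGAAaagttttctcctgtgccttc
Rbl1: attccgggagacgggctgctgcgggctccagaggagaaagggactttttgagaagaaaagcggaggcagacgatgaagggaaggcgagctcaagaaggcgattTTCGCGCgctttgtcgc
Cdk1 (chr10:69352913-69353032, minus strand) and Cdc20 (chr4:118437344-118437463, minus strand) stand for G2/M and mitosis and hold CHR and CCAAT letters in this stretch; the 300-base window of Cdk1 also holds 2 E2F-type matches further from the start.
Cdk1: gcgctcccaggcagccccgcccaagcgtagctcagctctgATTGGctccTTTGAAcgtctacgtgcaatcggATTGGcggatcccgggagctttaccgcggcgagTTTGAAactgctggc
Cdc20: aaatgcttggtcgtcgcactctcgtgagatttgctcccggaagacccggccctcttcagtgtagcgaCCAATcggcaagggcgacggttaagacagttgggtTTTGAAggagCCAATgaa
Cdk6 (chr5:3343773-3343892, plus strand) and Ccne1 (chr7:38107491-38107610, minus strand), both lower in ICM, hold none of these letters here.
Cdk6: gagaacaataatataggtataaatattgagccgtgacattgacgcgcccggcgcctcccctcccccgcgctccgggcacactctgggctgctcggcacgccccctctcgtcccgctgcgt
Ccne1: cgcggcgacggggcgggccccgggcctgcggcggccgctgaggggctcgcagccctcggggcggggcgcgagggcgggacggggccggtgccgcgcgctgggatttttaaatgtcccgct
The E2F-type letters of Mcm6 and Orc1 and the CHR letters of Cdk1 and Cdc20 belong to genes that varied by less than 2-fold across the groups, with spans of group means of 0.48, 0.79, 0.28 and 0.50. Genes with E2F-type letters also varied more: Rbl1, printed above, had a span of 1.05. Mcm3 and E2f3, with such letters in a 300-base window, had spans of 1.25 and 1.79. The examples therefore do not show whether genes with these letters vary less.

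Although few genes of replication and mitosis passed the fold minimum, most lay slightly lower in FGF-ESC than in the other cultured cells. Against ESC, 34 of the 35 were below 0, with a median difference of -0.42, where 57.8% of all genes tested were below 0 and their median was -0.06. Without the fold minimum, 10 of the 35 were lower at an adjusted p below 0.05, where 6.11% of all genes tested were, and 0 were higher, where 9.24% were. At limma's unadjusted p below 0.05, also 0 were higher. Mcm5 was the lowest, at -0.85 ± 0.14 (adjusted p = 0.00770), with values of 7.78 and 8.15 in FGF-ESC against 8.88 and 8.77 in ESC. Against EpiSC, 34 of the 35 were again below 0, where 55.2% of all genes tested were, with a median of -0.34. Without the fold minimum, 9 were lower at an adjusted p below 0.05, where 9.13% of all genes were, and 0 higher, where 10.7% were. At limma's unadjusted p below 0.05, also 0 were higher. The 2 FGF-ESC arrays differed in this: replicate 1 had a median difference from ESC of -0.57 and replicate 2 of -0.26, below 0 in 35 and 32 of the 35 (58.2% and 54.9% of all genes). From EpiSC the medians were -0.47 and -0.18, below 0 in 34 and 26 of the 35 (56.2% and 52.3% of all genes). Replicate 1 was the lowest of the 8 arrays in 19 of the 50 genes, where 19.5% of all genes tested were lowest on it. Replicate 2 was the lowest in 1, where 8.6% of all genes were. Replicate 1 was also the array with the higher fibroblast marker level, 8.62 against 7.48, and a link between these was not tested.

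Against ICM, the genes of replication and mitosis lay slightly higher in ESC and EpiSC. In ESC 31 of the 35 were above 0, with a median of 0.42, where 47.2% of all genes tested were below 0. Without the fold minimum 15 were higher at an adjusted p below 0.05, where 17.8% of all genes tested were, and 0 were lower (15.2%). In EpiSC 29 were above 0, with a median of 0.31, where 48.8% of all genes were below 0. Of the 35, 15 were higher at an adjusted p below 0.05, where 20.4% of all genes were, and 0 lower (18% of all genes). At an unadjusted p below 0.05, limma also placed 0 of the 35 lower in ESC or EpiSC than in ICM. Of FGF-ESC minus ICM, 18 were above and 17 below 0 (52.4% of all genes below), 3 of them higher and 4 lower at an adjusted p below 0.05 (19.7% and 17% of all genes). This averages 2 arrays with medians of opposite sign, -0.17 on replicate 1 (22 of 35 below 0, 53.9% of all genes) and 0.19 on replicate 2 (11 of 35 below 0, 50% of all genes). Between ESC and EpiSC 1 was higher and 2 were lower in ESC (9.15% and 9.86% of all genes). Centring each array on its median over tested genes moves every difference by -0.11 for FGF-ESC minus ESC, by -0.20 for FGF-ESC minus ICM and by -0.11 for EpiSC minus ICM. With it the median over all 50 genes went from 0.14 to -0.06 for FGF-ESC minus ICM, so that its sign depends on the scaling, and from -0.36 to -0.47 for FGF-ESC minus ESC. The median over all genes tested moved by as much, from -0.02 to -0.22 and from -0.06 to -0.16.

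Within FGF-ESC, the array with the higher fibroblast marker level also had the higher values of the 3 genes that passed against ESC. On FGF-ESC replicate 1, with the fibroblast level of 8.62, Ccnd1, Ccnd2 and Cdkn2b read 9.46, 8.97 and 7.46. On replicate 2, with the level of 7.48, they read 8.80, 7.80 and 6.27. EpiSC, at levels of 5.05 and 5.38, had Ccnd2 at 7.48 and 7.09, and ESC and ICM, at 4.34 to 4.51, had it near 4. Across groups the genes did not all follow the marker level: Ccnd1 had a mean of 8.04 in ESC and 5.99 in ICM, whose marker levels were close, and Cdkn2b had its lowest mean, 5.10, in EpiSC. Rb1 (brighter probe set) and Rbl2, also above all other arrays in FGF-ESC, read lower on replicate 1 (6.05 and 4.93) than on replicate 2 (6.31 and 5.09). The part of feeder cells in these values was not tested. In the same way, the trophectoderm and primitive endoderm marker means were higher in ICM than on the cultured arrays, and their part in the lower G1 genes of ICM was not tested.

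**Figure D4:**
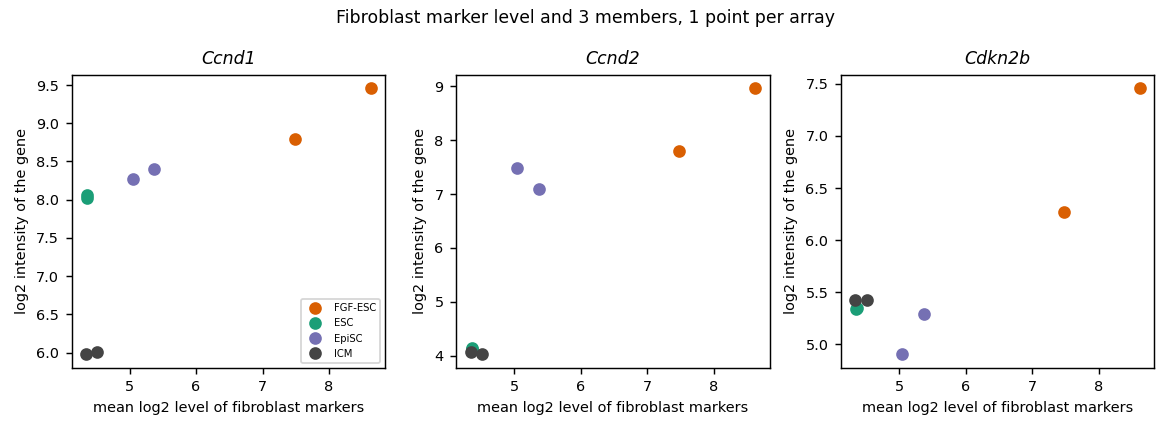
Log2 intensity of Ccnd1, Ccnd2 and Cdkn2b (vertical axes, each with its own scale) against the mean log2 level of 21 fibroblast markers (horizontal axis), 1 point per array, coloured by group. The 2 FGF-ESC arrays, at marker levels of 8.62 and 7.48, are to the right of all others and carry the highest values of each gene.

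A further list of 108 cell cycle and replication genes, none of them among the 54, was measured for 105 and tested for 104. FGF-ESC exceeded ESC in 2 of these, Pold4, a small polymerase delta subunit gene, by 1.53 ± 0.20, and the growth factor-responsive gene Myc by 1.15 ± 0.18 (adjusted p = 0.00257 and 0.00578). Against EpiSC 3 were higher in FGF-ESC, among them Mybl2 by 1.37 and Cdkn1a, the p21 gene, by 1.22, and 2 were lower, Cdkn1c (the p57 gene) at -1.45 and E2f6 at -1.03. ESC exceeded EpiSC in 1, Mybl2, by 1.84, and was lower in 3, Cdkn1c at -1.89, Myc at -1.79 and E2f6 at -1.13. Against ICM the counts were 4 higher and 1 lower in FGF-ESC, 5 and 0 in ESC, and 6 and 3 in EpiSC. In ESC, limma placed 8 genes below ICM at an unadjusted p below 0.05. In either direction 48 of the 104 were under this p, beside 5805 of the 13597 genes tested. The widest differences from ICM were those of E2f8, which was lower in ICM. FGF-ESC, ESC and EpiSC exceeded ICM by 2.39 ± 0.14, 1.96 ± 0.14 and 2.53 ± 0.14 (limma's adjusted p = 1.28e-05, 3.94e-05 and 6.55e-06). Its values were 4.58 and 4.22 in ICM and 6.28 to 6.93 in cultured cells. The other E2F gene on this list that passed against ICM in all 3 was E2f5, lower in ICM by between 1.03 (FGF-ESC) and 1.74 (EpiSC). Ticrr, an initiation factor gene, went the other way, at 8.69 and 8.68 in ICM against 6.71 to 7.86 elsewhere, and passed against FGF-ESC and EpiSC. Over all 6 comparisons 13 of the 104 passed somewhere, 12.5%, against 25.1% of all genes tested.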

How the data were processed

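Log2 intensities, 1 per probe set and array, were used as deposited by the authors; the log2 scale was read from their range. The submitters' processing notes name Affymetrix Expression Console 1.3.1 as the software; for summarisation, background correction and genome build, nothing is given in the sources used here. Of 41345 probe sets, 23521 named 1 gene in the platform annotation, 1814 several and 16010 none; the first kind was used, the brightest per gene. Genes entered the test if 2 or more arrays exceeded the overall median, 4.24. A means model over the 8 arrays was fitted with limma 3.58.1 in R 4.3.3, with 4 residual degrees of freedom and Benjamini-Hochberg adjustment within each of 6 comparisons; SE and adjusted p are limma's, from the pooled spread. The fit was tested on simulated data. The number of arrays limits the precision, and no detection calls were used.

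Members, lists, thresholds and alternatives were chosen with earlier results of these data known. Values on all arrays are given for each gene past the threshold in any comparison, for Ccnd1, Ccnd2, Ccnd3, Cdkn1b, Cdkn2a and Cdkn2b, and for the widest gene of a phase group with none past it; of other pathway genes, up to 4 per direction and comparison are named. Mcm5, Gins1, Aurka and Cdk2 were singled out after their values were seen. Alternatives covered normalization, the filter, the probe set, the fold minimum, the groups in the fit, the spread, the replicate block and leaving out each array; 1, the other probe set of members with 2, was added after seeing the data.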

Additional observations from a re-analysis of the deposited data

How the results depend on the processing

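Of the 31 calls of single genes given in the report for the 54 genes, 22 were past the threshold under every alternative run, 9 were lost under at least 1, and 0 turned direction. Besides leaving out arrays, the calls lost were Ccnd1 and Cdkn2b between FGF-ESC and ESC and Ccnd2 and Cdkn2b between FGF-ESC and EpiSC when only the 2 groups compared were fitted (adjusted p = 0.0601, 0.0809, 0.153 and 0.0613), and Ccnd2 between FGF-ESC and EpiSC with no filter on low values (adjusted p = 0.0613). Centring the arrays brought 5 under the fold minimum: Ccnd1 between FGF-ESC and ESC (0.98), Cdk4 and Rbl1 between ESC and ICM (0.99 and 0.96), and Mcm3 and Aurkb between EpiSC and ICM (0.92 and 0.91). With only 2 groups in the fit the counts were 1 for FGF-ESC with ESC and 0 for FGF-ESC with EpiSC, and the latter count was 1 with no filter. In the fit of all groups, limma's unadjusted p was below 0.05 for 30 genes in each of these comparisons. Over the 13597 genes tested it was so for 4222 and 4460. Without a fold minimum the counts were 17, 19, 19, 5, 24 and 24 for FGF-ESC with ESC, EpiSC and ICM, ESC with EpiSC and ICM, and EpiSC with ICM, and 19, 20, 32, 12, 37 and 35 for the other pathway genes. In that order, 9.24%, 10.7%, 19.7%, 9.15%, 17.8% and 20.4% of all genes tested were then higher in the first group. The shares lower in it were 6.11%, 9.13%, 17%, 9.86%, 15.2% and 18%. ESC with EpiSC gave 2 with the mean of a gene's probe sets or with the other probe set, the second gene being Rb1 (-4.05, lower in ESC, by the other probe set). With the other probe set Rb1 was also added to the calls between FGF-ESC and ESC (1.81, higher, 4 genes in all), FGF-ESC and EpiSC (-2.24, lower, 3 in all) and ESC and ICM (1.36, higher, 9 in all). Leaving out 1 array gave 1 to 4, 0 to 5, 6 to 7, 1, 8 to 9 and 8 to 10 genes in that order, and 1 to 3, 4 to 6, 4 to 7, 3 to 5, 5 to 8 and 9 to 11 other pathway genes; a group left with 1 array is assumed to vary like the others. Signs that turned were those of Ccnd3 between FGF-ESC and ESC with centred arrays (-0.0055), of Ccnd3 between EpiSC and ICM without EpiSC replicate 1 (0.012) or ICM replicate 2 (0.066), in a range from -0.17 to 0.066 over the arrays left out, and of Rb1 between FGF-ESC and EpiSC with the mean of its probe sets (-0.86) and the other probe set (-2.24). The cause of these changes was not tested, other than that fewer arrays or groups entered the fit.

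Same-numbered arrays of different groups shared little deviation: their deviations from group means correlated with r from -0.09 to 0.04 over the tested genes. This cannot settle whether same-numbered samples were handled together. With the replicate block the counts were 3, 2, 7, 1, 8 and 10, the same genes as without it.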

Other observations

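Among the other cell cycle genes, 4 that had at least 1 group apart from the rest are given here, chosen after their values were seen. Cdkn1c, an inhibitor of cyclin-dependent kinases, read 6.45 and 5.88 in EpiSC and between 4.14 and 4.81 on the other 6 arrays, so EpiSC alone stood high. Myc read 5.81 and 5.84 in ESC, below all others, and 7.73 and 7.50 in EpiSC, above all others, with FGF-ESC at 7.24 and 6.71 and ICM at 6.43 and 6.55 between them. Mybl2, which encodes a transcription factor of G2/M genes, was lowest in EpiSC, at 7.03 and 7.32, against 8.29 to 9.04 elsewhere. Pttg1, the securin gene, was highest in ICM, at 7.90 and 7.93, against 6.80 to 7.34.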
